A study of Mus musculus with 12 samples.

Results

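The kinetochore is the protein structure that joins each chromosome to the spindle in cell division. It is built on the centromere, where nucleosomes carry the histone variant CENP-A. An inner layer (the constitutive centromere-associated network, CCAN) binds this chromatin, and an outer layer (KNL1, MIS12 and NDC80 complexes) binds microtubules. The spindle checkpoint holds back anaphase until all kinetochores are attached, and the chromosomal passenger complex around Aurora B releases wrong attachments. Most of these transcripts accumulate in cells that approach division, and in a preovulatory follicle the granulosa cells leave the cell cycle after the luteinizing hormone surge.

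The transcripts described here belong to 46 genes of the centromere, kinetochore and spindle checkpoint. They were taken from a list of gene symbols and kept if the gene was in the expression tables of both cell types. All 46 listed genes were in both tables, among 26382 genes that the tables share, and all 46 passed the filter on low levels in both (0.5 FPKM or more as the mean of WT or of Sphk1/2gc-/- libraries). FPKM, a fragment count scaled by exon length and by the fragments counted in the library, allows levels of different genes to be set side by side. The list itself holds no threshold on measured values, but it was drawn up with earlier results of these data known. Values are summed over all annotated exons of a gene.

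RNA was sequenced from mural granulosa cells (MGCs, which line the follicle wall) and from cumulus cells, which surround the oocyte, with 3 libraries per genotype and cell type and 12 libraries in all. WT mice were compared with Sphk1/2gc-/- mice, that is Sphk1-/-; Sphk2 fl/fl; Fshr-Cre, which lack sphingosine kinase 1 in the whole body and carry Sphk2 with exons 4 and 6 flanked by LoxP sites, deleted by Cre from the Fshr promoter. The study's methods describe females 21 to 23 days old given 5 IU eCG and, 48 h later, 5 IU hCG, and cells of both genotypes were collected at 2 h post-hCG. The methods give the WT mice as C57/BL6 animals bought from a supplier. How many mice were pooled for a library is not given in the sources used here, so the p-values measure only the spread between these libraries, which may be technical.

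The libraries held between 16100364 and 19761604 counted reads. Sphk1 was listed at 1.68, 1.88 and 0.460 FPKM in WT MGCs and 0.432, 0.557 and 0.104 in Sphk1/2gc-/- MGCs, so these groups overlapped, with Sphk1/2gc-/- library 2 above WT library 3. In cumulus cells it was listed at 0.0911, 0.0699 and 0.0954 in WT and at 0.0778, 0.456 and 0.557 in the libraries labelled Sphk1/2gc-/-, so 2 of these 3 went against the label. Sphk2 is summed over all its exons, deleted or not, and checks nothing. The third library of Sphk1/2gc-/- MGCs stood apart from the other MGC libraries, with correlations of 0.912 to 0.939 with them (log2 FPKM + 1, 15279 genes). The granulosa cell marker Fshr was present in all 12 libraries (50.0 to 118 FPKM), whereas Amh, another granulosa marker, was at 0.102 to 2.16 in cumulus cells and at 87.3 to 226 in MGCs. WT cumulus library 3 listed 27541 genes above 0, against 18788 to 19289 in the other cumulus libraries. The labels give no batch.

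Compared with WT cumulus cells, most kinetochore transcripts were lower in cumulus cells labelled Sphk1/2gc-/-. By limma with an adjusted p of 0.05 or less and a change of 2-fold or more on the scale of FPKM + 1, 25 of the 46 were called lower and 0 higher. Among all 12205 transcripts tested, 3.85% were called lower and 4.19% higher. With the adjusted p alone, 32 members were lower against 12.7% of all transcripts, and 1 was higher (Mis18a) against 9.66%. The median log2 change of the members was -1.03, and that of all transcripts was -0.06. In 33 members the libraries labelled Sphk1/2gc-/- all lay below the WT libraries, which held for 24.1% of all transcripts. In bulk RNA, fewer cells near division and less of this RNA in each cell cannot be told apart.

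The libraries labelled Sphk1/2gc-/- were not alike in the size of the difference. The median ratio of a member to its WT mean was 0.646 in library 1, 0.384 in library 2 and 0.339 in library 3, against 0.948 to 1.05 in the WT libraries. Library 1 had the highest level of the 3 in 40 of 46 members, and this share was not counted over all transcripts. The median ratio of 14 proliferation genes in libraries 1, 2 and 3 was 0.687, 0.385 and 0.423. Without library 1, 31 members were called lower, and without library 3, 15 were. The shares of all transcripts called in these settings were not counted, so the shift cannot be assigned to the members. The members called with any one of the 6 libraries left out numbered 15, namely Birc5, Bub1, Bub1b, Cenpe, Cenpf, Cenph, Cenpm, Cenpq, Knl1, Ndc80, Oip5, Pmf1, Ska1, Spc24 and Spc25.

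**Figure D1:**
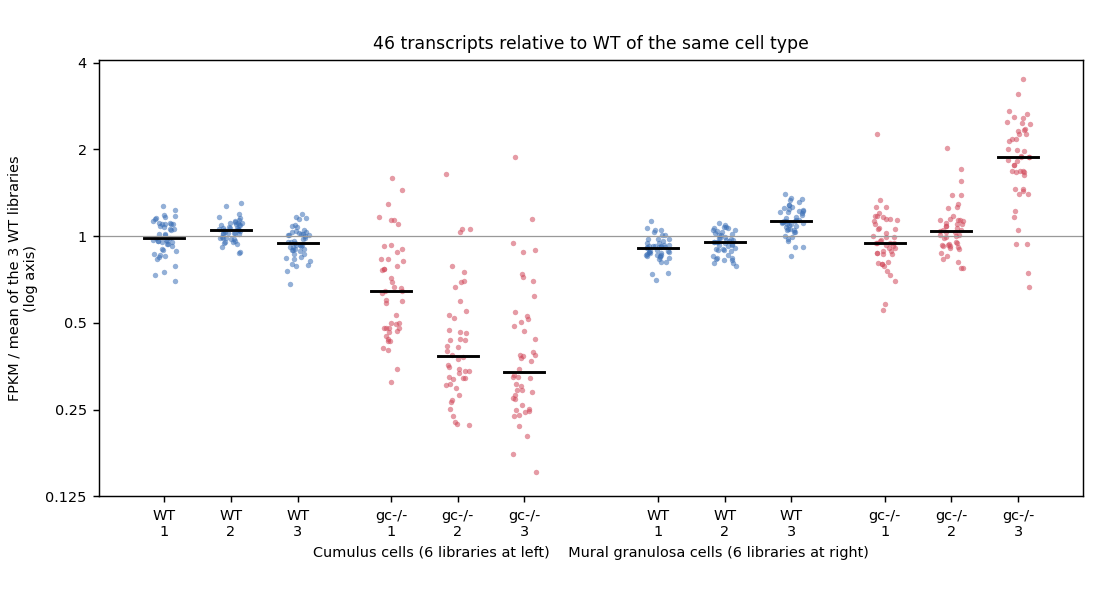
Each point is the FPKM of 1 of the 46 transcripts in a library divided by its mean in the 3 WT libraries of the same cell type (log axis), and the black bars are medians. The medians of the cumulus libraries labelled Sphk1/2gc-/- (gc-/-) are 0.646, 0.384 and 0.339, and those of Sphk1/2gc-/- MGCs are 0.950, 1.04 and 1.88.

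Of 6 genes of the spindle checkpoint, 3 were called lower in cumulus cells and 4 were lower by the adjusted p alone. Bub1 (GRCm38, chr2:127801122-127831865, minus strand), a kinase that marks centromeric histone H2A and brings other checkpoint proteins to the kinetochore, was at 49.6, 45.3 and 43.8 FPKM in WT cumulus cells and at 24.7, 14.1 and 13.5 in those labelled Sphk1/2gc-/-. The groups did not overlap (log2 change -1.41, SE 0.230, adjusted p = 0.00545). Bub1b, which encodes the checkpoint protein BUBR1, changed by -1.36 (SE 0.241, adjusted p = 0.00710), and Mad2l1, whose product inhibits the anaphase-promoting complex, by -1.06 (SE 0.147, adjusted p = 0.00306). Ttk, the MPS1 kinase that starts checkpoint signalling, passed the adjusted p but not the fold (-0.79, SE 0.235, adjusted p = 0.0448). Mad1l1, which carries MAD2 to the kinetochore, was low in both groups, at 0.579, 0.945 and 0.967 FPKM in WT and 0.946, 0.652 and 0.743 in the labelled libraries. These values overlapped, with a log2 change of -0.04 whose 95% interval ran from -0.38 to 0.31. Bub3, the shared partner of BUB1 and BUBR1, was at 16.6 to 17.3 in WT and 14.0 to 17.8 in the labelled libraries (adjusted p = 0.592).

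The RZZ complex brings dynein and MAD1 to unattached kinetochores. Zwilch, one of its subunits, was at 5.90, 6.33 and 6.97 FPKM in WT and 4.59, 2.06 and 1.61 in cumulus cells labelled Sphk1/2gc-/- (log2 change -1.06, SE 0.269, adjusted p = 0.0269). Zw10, a subunit that also works in membrane traffic, was at 8.67, 10.7 and 9.39 in WT and 10.6, 6.65 and 6.70 in the labelled libraries (adjusted p = 0.369). Zwilch was lower in every labelled library, whereas library 1 was as high as WT for Zw10.

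The 4 genes of CENP-A and its loading moved in different directions. Cenpa, the centromeric histone itself, was at 42.9, 45.4 and 39.5 FPKM in WT and 20.5, 22.2 and 18.7 in the labelled libraries (log2 change -1.02, SE 0.144, adjusted p = 0.00335). Oip5, which encodes MIS18 beta, was at 5.14, 4.10 and 4.77 in WT and 1.91, 1.39 and 1.41 in the labelled libraries (log2 change -1.14, SE 0.153, adjusted p = 0.00280). In both, the labelled libraries lay close together and below all WT libraries.

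Mis18a (chr16:90719312-90727404, minus strand), the partner of MIS18 beta in marking the centromere for new CENP-A, went the other way. It was at 114, 101 and 134 FPKM in WT and at 184, 191 and 219 in cumulus cells labelled Sphk1/2gc-/-, with no overlap. The log2 change was 0.77 (SE 0.162, adjusted p = 0.0133), short of the fold limit. The neighbouring gene Mrap, a cofactor of the melanocortin 2 receptor that was picked out after its values were seen, lies 10802 bases from Mis18a on the opposite strand with no shared exon. Mrap was at 779, 753 and 1367 FPKM in WT and 1735, 2269 and 2429 in the labelled libraries (log2 change 1.19, SE 0.252, adjusted p = 0.0136), and its part in the reads of Mis18a was not tested. Hjurp, the chaperone that deposits CENP-A, was at 17.3, 19.5 and 16.6 in WT and 15.7, 13.4 and 16.9 in the labelled libraries (log2 change -0.21, 95% interval -0.56 to 0.14).

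Of 13 CCAN genes, 7 were called lower, and 10 were lower by the adjusted p alone. Cenpm (chr15:82233779-82244748, minus strand) was at 127, 146 and 127 FPKM in WT and 45.9, 30.0 and 36.1 in the labelled libraries, with a log2 change of -1.82 (SE 0.183, adjusted p = 0.000971). Cenph, another subunit of the same arm of the network, was at 76.5, 74.0 and 57.8 in WT and 33.2, 15.5 and 14.1 in the labelled libraries (log2 change -1.78, SE 0.304, adjusted p = 0.00636). On the scale of FPKM + 1, Cenpm, Ska1 and Cenph had the largest changes of the members and lay within 1 SE of each other, whereas in the ratio of mean FPKM Ska1 (0.228) and Knl1 (0.276) were lower than Cenpm (0.281). For both Cenpm and Cenph, the lowest WT library exceeded the highest labelled library. Cenpq, Cenpu, Cenpi, Cenpl and Cenpn were the others called, with log2 changes of -1.31, -1.18, -1.13, -1.12 and -1.03. Cenpk (-0.96), Cenpw (-0.94) and Cenpp (-0.77) passed the adjusted p but not the fold. Cenpt, whose product links the inner layer to NDC80, was at 2.28, 3.19 and 3.64 in WT and 3.93, 3.14 and 2.20 in the labelled libraries, so the groups overlapped fully (log2 change 0.01, 95% interval -0.46 to 0.49). Cenpc1, which encodes the scaffold CENP-C, and Cenpo did not pass either (log2 changes -0.46 and -0.29, adjusted p = 0.122 and 0.217).

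In the outer kinetochore, 6 of 10 genes were called lower. Knl1 (chr2:119047119-119105501, plus strand), the scaffold on which BUB proteins dock, was at 14.5, 15.1 and 12.0 FPKM in WT and 5.57, 3.47 and 2.42 in the labelled libraries (log2 change -1.67, SE 0.239, adjusted p = 0.00351). All 4 subunits of the NDC80 complex, the main microtubule coupler, were called lower, by -1.49 for Ndc80, -1.38 for Spc25, -1.26 for Spc24 and -1.16 for Nuf2 on the log2 scale. Spc25 was at 60.5, 50.0 and 46.3 FPKM in WT cumulus cells and 24.4, 17.5 and 17 in the labelled libraries, and its WT level lay within the spread of that of Spc24 (39.6, 50.1 and 50.3). The 4 genes of the MIS12 complex, which joins the inner and outer layers, behaved unequally. Pmf1 was called lower (-1.17, SE 0.143, adjusted p = 0.00194) and Dsn1 passed the adjusted p alone (-0.82, adjusted p = 0.0363). Nsl1 had a log2 change of -0.46 (adjusted p = 0.145). Mis12 was at 8.54, 12.6 and 11.2 in WT and 15.6, 7.52 and 7.97 in the labelled libraries, which enclosed the WT values (log2 change -0.10, 95% interval -0.73 to 0.52). Zwint, a KNL1 partner, was at 26.6, 28.3 and 27.8 in WT and 31.5, 29.3 and 31.7 in the labelled libraries. These did not overlap, but the difference was small and did not pass (log2 change 0.16, adjusted p = 0.425).

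The genes of both corona proteins were called lower. Cenpe (chr3:135212537-135273611, plus strand), a kinesin of the fibrous corona, was at 33.3, 32.5 and 28.8 FPKM in WT and 13.6, 8.85 and 7.49 in the labelled libraries (log2 change -1.60, SE 0.212, adjusted p = 0.00262). Cenpf, a large protein of the corona and the nuclear matrix, was at 11.9, 11.2 and 8.40 in WT and 4.62, 3.23 and 2.96 in the labelled libraries (log2 change -1.32, SE 0.194, adjusted p = 0.00383). The groups were apart for both genes. Of the SKA complex, which follows microtubule ends as they shorten, Ska1 was at 12.5, 10.1 and 9.56 in WT and 3.34, 2.37 and 1.62 in the labelled libraries (log2 change -1.79, SE 0.209, adjusted p = 0.00169). Ska3, at 30.4, 34.7 and 40.2 in WT and 32.8, 13.2 and 17.7 in the labelled libraries, did not pass (log2 change -0.79, adjusted p = 0.0909), as labelled library 1 lay within WT. Ska2, a weakly expressed subunit, was at 1.08, 1.45 and 1.11 in WT and 1.41, 0.572 and 0.446 in the labelled libraries (adjusted p = 0.291).

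Of the chromosomal passenger complex, 3 of 4 genes were called lower. Birc5 (chr11:117849251-117855743, plus strand), which encodes the targeting subunit survivin, had the highest mean level of the members in WT cumulus cells, at 155, 144 and 122 FPKM. It was at 63.0, 45.2 and 41.0 in the labelled libraries (log2 change -1.5, SE 0.195, adjusted p = 0.00253). Aurkb, the kinase, changed by -1.38 (SE 0.305, adjusted p = 0.0161) and Cdca8, which encodes borealin, by -1.0 (SE 0.267, adjusted p = 0.0317). Incenp, the scaffold that activates the kinase, was at 2.86, 2.94 and 3.13 in WT and 1.29, 1.59 and 1.18 in the labelled libraries, and passed the adjusted p alone (log2 change -0.76, SE 0.138, adjusted p = 0.00785). All 4 genes had no overlap between the groups. The shugoshins protect cohesin at the centromere. Sgo1 was at 12.2, 14.4 and 11.9 in WT and 11.8, 5.11 and 4.90 in the labelled libraries (log2 change -0.84, adjusted p = 0.0712), and Sgo2a was at 3.78, 3.25 and 2.54 against 2.10, 1.39 and 1.56 (log2 change -0.64, adjusted p = 0.0331).

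**Figure D2:**
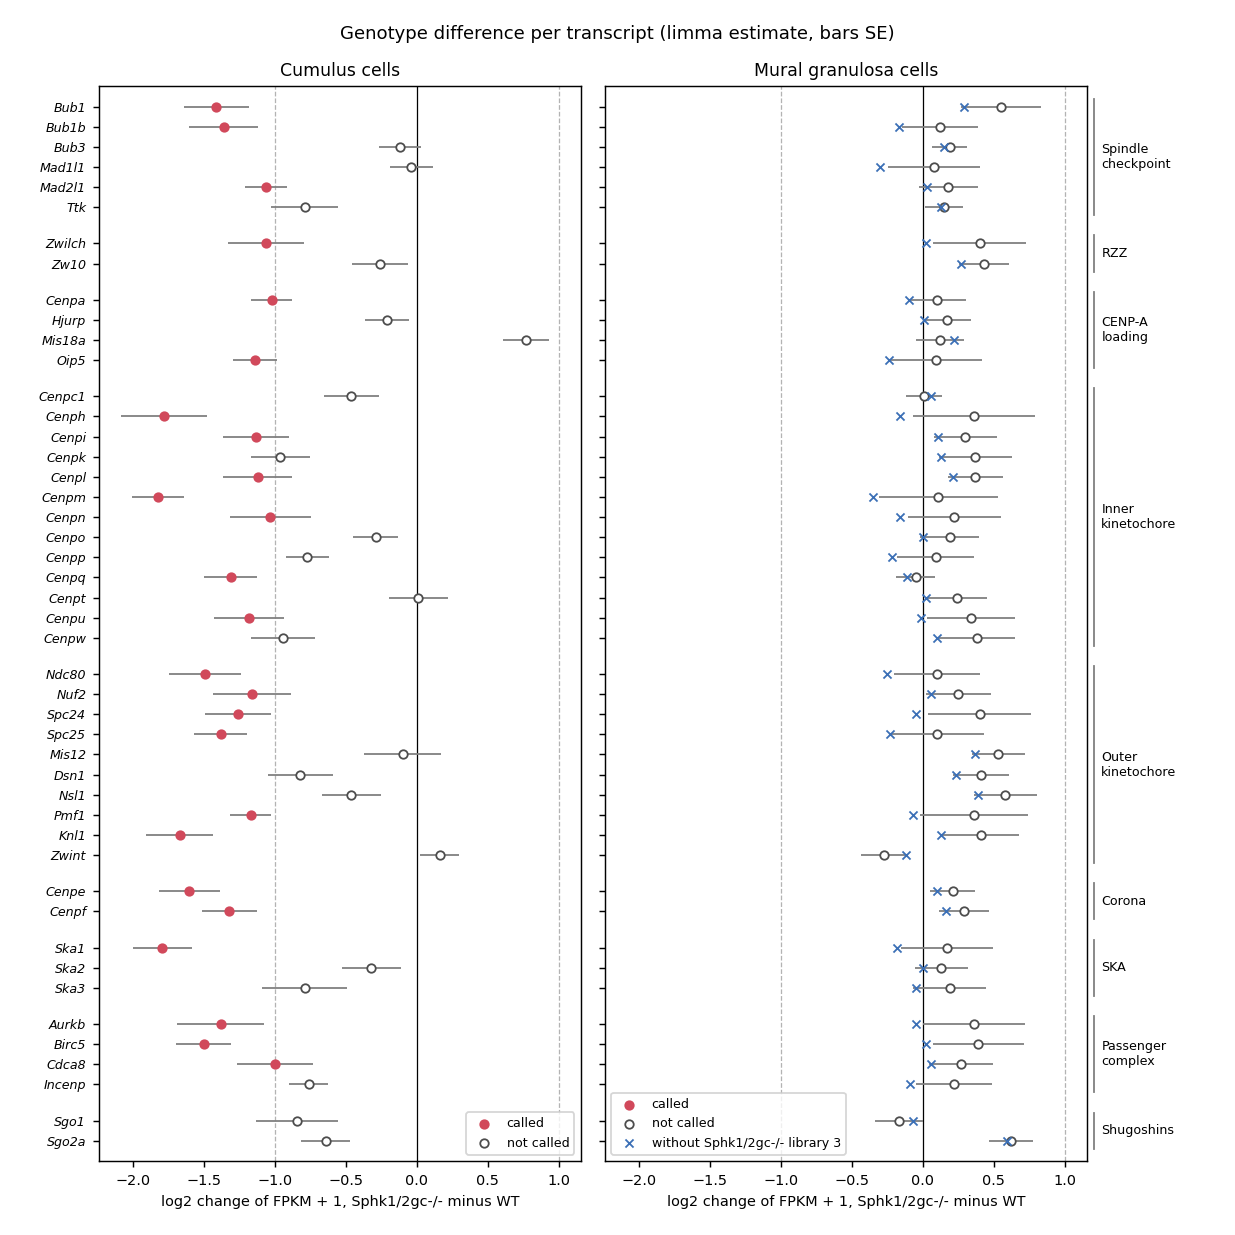
Log2 change of FPKM + 1 (Sphk1/2gc-/- minus WT) of each transcript by role, with the SE from limma as bars, filled red where called and dashed lines at the fold limit. In cumulus cells 25 transcripts are called lower and in MGCs none is called, and the blue crosses, fitted without Sphk1/2gc-/- library 3, lie to the left of most MGC values (median 0.22 with it and 0.02 without it).

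Other transcripts of cell division were compared in the same cumulus libraries. Of 14 proliferation genes, 7 were called lower and 0 higher, and their median log2 change was -1.03. Mki67, a label of cycling cells, was at 21.7, 20.2 and 18.4 FPKM in WT and 9.81, 8.17 and 8.73 in the labelled libraries (log2 change -1.09, SE 0.146, adjusted p = 0.00280). Of 20 kinetochore genes outside the 46, 3 were called lower, Spdl1 (-1.22) and Cenps (-1.05) among them, and the median was -0.42. Of 19 anaphase genes tested, 3 were called lower, namely Ube2c (-1.23), Pttg1 (-1.14), which encodes securin, and Ube2s (-1.13), and the median was -0.41. Of 16 cell cycle regulators tested, 0 were called lower and 1 higher, with a median of -0.20 and a lowest change of -0.96. By the adjusted p alone 2 of them were lower and 1 higher, against 12.7% and 9.66% of all transcripts. The regulator called higher was Cdkn1a, the cyclin-dependent kinase inhibitor p21, at 11.1, 8.56 and 17.1 in WT and 30.8, 53.4 and 51.1 in the labelled libraries (log2 change 1.81, SE 0.286, adjusted p = 0.00497).

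Some markers of granulosa cells and of other cells also differed between the cumulus libraries. Of 8 granulosa genes, 3 were called lower, namely Cyp19a1, which encodes aromatase (-2.38), Nr5a2 (-1.5) and Inhba (-1.35), and 5, Fshr among them, had all labelled libraries below WT. The log2 change was positive in 2 of the 8, at most 0.23. Inha was at 1213, 1562 and 2114 in WT and 1772, 1871 and 1966 in the labelled libraries. Of 3 genes typical of mural granulosa cells, 2 were called lower. Lhcgr, the luteinizing hormone receptor, was at 18.7, 7.71 and 12.6 FPKM in WT and 1.93, 4.62 and 2.82 in the labelled libraries, and Cyp11a1, the enzyme that starts steroid synthesis, was at 16.3, 5.86 and 13.5 in WT and 1.33, 3.20 and 0.608 in the labelled libraries. Both were higher in every WT library. The third, Nppc, was at 37.3, 14.0 and 26.4 in WT and 19.1, 37.0 and 34.2 in the labelled libraries, so these overlapped. Of 3 theca and stroma genes tested, Cyp17a1 (-1.24) and Lum (-1.22) were called lower, and the summed level of the list was 11.7 to 39.8 in WT and 6.01 to 11.8 in the labelled libraries. The summed level of 16 oocyte genes was 7.33 to 11.9 FPKM in WT and 3.09 to 3.58 in the labelled libraries, with 6 of the 16 tested and 1 of them, Tle6, called lower. The defining oocyte genes were near 0 in both groups, Gdf9 at 0.329 to 1.26 in WT and 0.539 to 0.784 in the labelled libraries and Zp3 at 0.631 to 1.92 and 0.344 to 0.394. Hemoglobin transcripts summed to 0.346 to 22.4 in WT and 0.2 to 1.42 in the labelled libraries, so these overlapped, and 0 of 3 were called. Leukocyte markers summed to 4.88 to 54.9 in WT and 6.91 to 52.3 in the labelled libraries, which also overlapped. Of 4 leukocyte markers tested, 1 was called lower, and 2 had a positive log2 change. Of 4 ovulatory genes (Has2, Ptx3, Tnfaip6 and Ptgs2), 2 were called higher and 0 lower, with a median log2 change of 1.08. Their summed level was 309 to 702 in WT and 1077 to 1332 in the labelled libraries. The part of these markers in the kinetochore result was not tested.

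The start regions of the genes were searched for sequence elements known from cell cycle promoters. RefSeq windows of 300 bases (250 before and 50 after the start site, GRCm38.p6) were held for 40 of the 46 genes, and Incenp, Zwilch, Spc24, Nsl1, Ska1 and Aurkb had no entry. The cell cycle genes homology region (CHR) has the letters TTTGAA. With either strand searched, it was found in 17 of the 40 members (42.5%) and in 20.2% of 27025 genes. A gene was counted if any of its windows held the letters, and the 40 members had 45 windows. The CCAAT box was found in 27 of 40 (67.5%) and in 41.1%, and an E2F site written as TTTGGCGC or TTTCCCGC in 3 of 40 (7.50%) and in 1.80%. Among members with a window, CHR letters were in 11 of the 21 called lower in cumulus cells and in 6 of the 19 others. For CCAAT these counts were 16 of 21 and 11 of 19. A match of letters is a description of the window, and no binding was measured.

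To show how alike the element looks in genes that behaved alike and in one that did not, 6 of the members with TTTGAA on the gene's own strand within 50 bases of the start site are given as 30 bases around it, in the direction of the gene, with the element in capitals. All of the printed genes but Hjurp were called lower in cumulus cells. Members with the element on the opposite strand within 50 bases of the start site are not printed. Oip5, Cenpn and Ndc80 of these were called lower, and Bub3, Ttk, Cenpw and Ska3 were not.
Bub1b (chr2:118598231-118598260, plus strand): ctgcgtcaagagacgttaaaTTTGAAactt
Cenpa (chr5:30666890-30666919, plus strand): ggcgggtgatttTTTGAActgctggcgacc
Cenpf (chr1:189688067-189688096, minus strand): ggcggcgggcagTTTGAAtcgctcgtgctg
Knl1 (chr2:119047138-119047167, plus strand): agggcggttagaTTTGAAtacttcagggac
Spc25 (chr2:69206172-69206201, minus strand): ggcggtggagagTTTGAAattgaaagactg
Hjurp (chr1:88277543-88277572, minus strand): tgcgtaaatactTTTGAAagaccctattag
Spc25 and Ttk had a pair of CCAAT boxes within the 100 bases before the start and no annotated exon there, and these stretches are printed with the boxes in capitals. Spc25 was called lower, and Ttk was lower by the adjusted p alone.
Spc25 (chr2:69206214-69206313, minus strand): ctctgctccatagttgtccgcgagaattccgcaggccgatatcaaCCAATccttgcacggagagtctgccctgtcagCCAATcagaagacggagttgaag
Ttk (chr9:83834589-83834688, plus strand): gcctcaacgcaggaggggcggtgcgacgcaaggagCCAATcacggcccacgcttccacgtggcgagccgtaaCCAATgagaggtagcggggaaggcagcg

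In MGCs the same comparison called 0 of 46 members in either direction by limma. Among all 15279 transcripts tested, 0.0327% were called lower and 0.00654% higher. At an unadjusted p under 0.05, 4 members were higher (Sgo2a, Mis12, Nsl1 and Zw10) and 0 lower, against 3.31% and 5.9% of all transcripts. With a replicate block 5 were higher, and the share of all transcripts was not counted in that setting. Voom on reads rebuilt from the FPKM called 0 of the 43 members it could test. The median log2 change was 0.22, with 43 positive values, but much of this rested on 1 library. Across all 15279 transcripts the median was -0.0034, with 7564 positive values. Sphk1/2gc-/- library 3 had the highest level of the 6 MGC libraries for 41 of 46 members, a share not counted over all transcripts. The median ratio of a member to its WT mean was 0.950, 1.04 and 1.88 in Sphk1/2gc-/- libraries 1, 2 and 3. Without library 3 the median log2 change was 0.02, with 26 positive values, and 17 members turned from positive to negative. In that setting the median of all 15215 transcripts was -0.09, with 5724 positive values, so the median of the members still lay above it.

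That library differed in other transcripts as well. The summed level of 14 proliferation genes was 640.3 FPKM in it and 269.6 to 363 in the other 5 MGC libraries. The summed level of 4 ovulatory genes (Has2, Ptx3, Tnfaip6 and Ptgs2) was 187 in it and 1077 to 2191 in the others. Leukocyte markers summed to 20.5 and hemoglobin transcripts to 29.5, the lowest of the MGC libraries, and oocyte genes summed to 154, the highest (36.9 to 134 in the others). Their part in the kinetochore values was not tested.

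Aurkb, Cenph and Birc5, picked after their values were seen, are examples. Aurkb, the passenger kinase, was at 9.10, 8.70 and 13.3 FPKM in WT and 10.0, 9.60 and 24.5 in Sphk1/2gc-/- MGCs. Cenph was at 3.09, 2.67 and 3.89 in WT and 2.58, 2.91 and 10.0 in Sphk1/2gc-/-. Birc5 was at 5.70, 6.24 and 8.09 in WT and 6.50, 6.98 and 15.5 in Sphk1/2gc-/-. In each of these, Sphk1/2gc-/- libraries 1 and 2 lay within the WT range or below it, and library 3 lay above. In 31 of 46 members libraries 1 and 2 were both at or below the highest WT library, a share not counted over all transcripts.

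A few members were higher in all Sphk1/2gc-/- MGC libraries. The genotypes did not overlap in 9 members, always with Sphk1/2gc-/- higher, against 7.72% of all transcripts. Sgo2a was at 0.692, 0.714 and 0.956 FPKM in WT and 1.79, 1.59 and 1.84 in Sphk1/2gc-/-, a tight separation that did not pass the correction (log2 change 0.62, SE 0.153, adjusted p = 0.294). Nsl1 was at 1.53, 1.75 and 2.05 in WT and 2.24, 3.05 and 4.37 in Sphk1/2gc-/- (log2 change 0.58, adjusted p = 0.50), and Mis12 at 6.46, 8.02 and 8.39 in WT and 9.59, 10.6 and 14.4 (log2 change 0.53, adjusted p = 0.475). With libraries 1 and 2 of each genotype only, Sgo2a and Bub1 were higher by the adjusted p alone (log2 changes 0.66 and 0.49, adjusted p = 0.0327 and 0.0307), when 5.07% of 15433 transcripts were. Bub1 was at 8.44 and 7.51 in these WT libraries and at 11.2 and 12.0 in Sphk1/2gc-/-, and at 12.7 and 20.8 in the libraries left out. Zwint was at 49.8, 49.0 and 43.5 in WT and 43.9, 43.3 and 31.5 in Sphk1/2gc-/- (log2 change -0.27, adjusted p = 0.671), and without library 3 its change was -0.12.

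**Figure D3:**
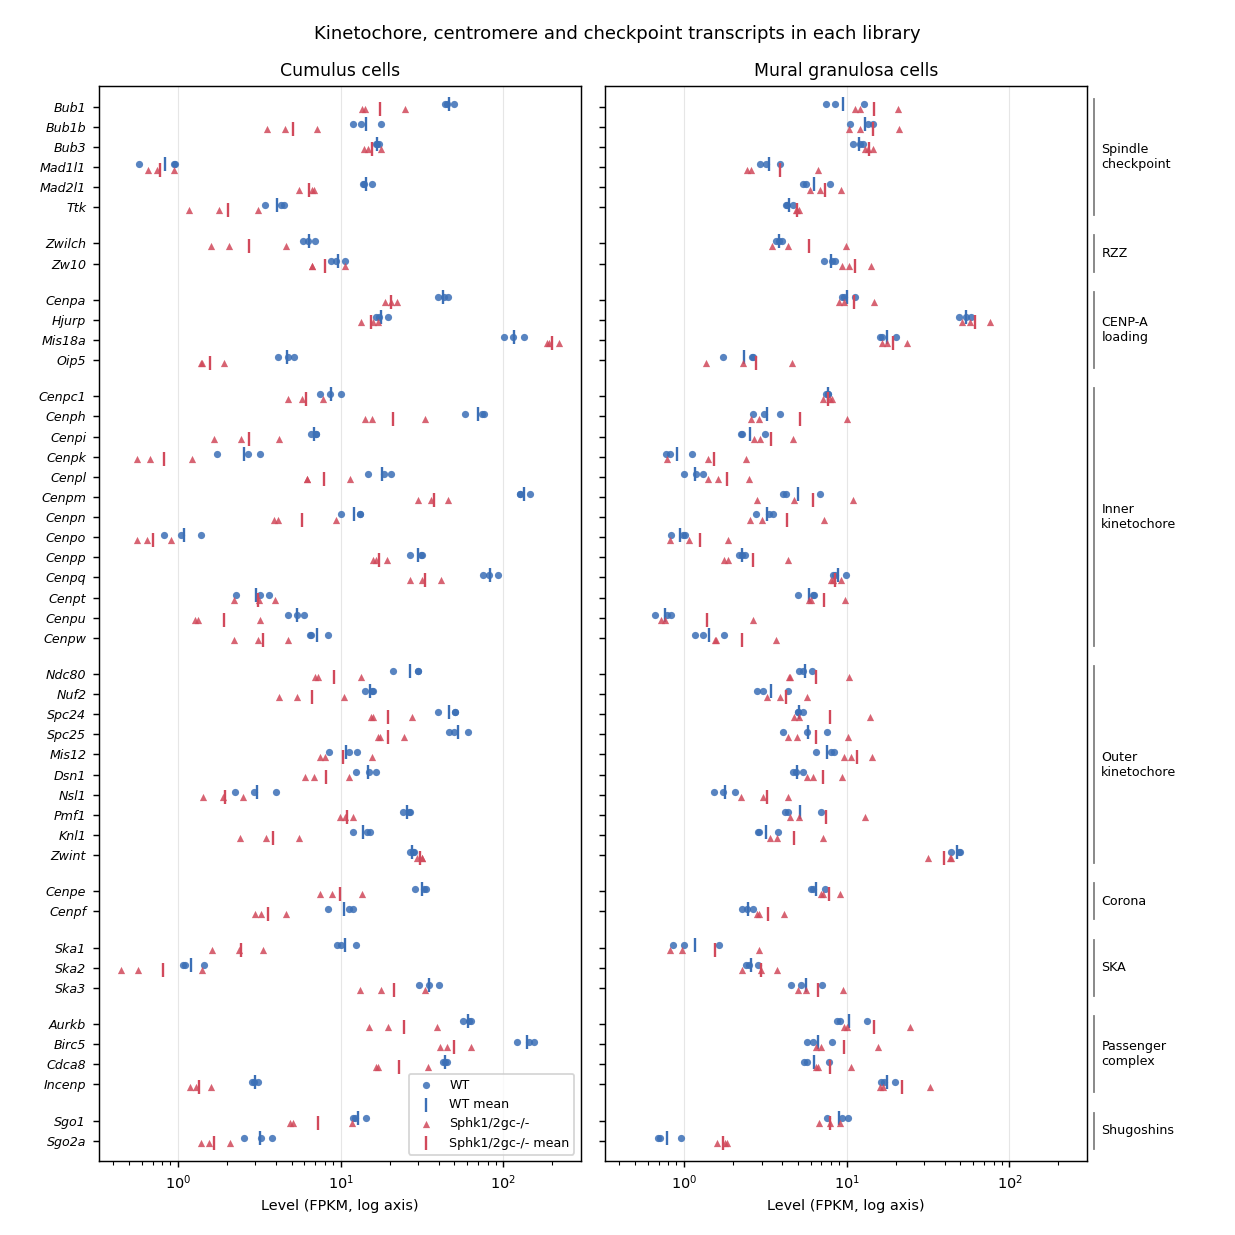
Level (FPKM, log axis) of each transcript in the 12 libraries, ordered by role, with circles for WT, triangles for Sphk1/2gc-/- and vertical bars for means (n = 3). In cumulus cells the triangles lie below the circles for 33 transcripts, whereas in MGCs the triangles farthest to the right are library 3 for most transcripts.

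Whether the genotype difference was unlike in the 2 cell types was tested as an interaction in 1 model of all 12 libraries. The difference in cumulus cells was lower than that in MGCs for 14 of 46 members at an adjusted p of 0.05 or less and higher for 0. Among all 15869 transcripts tested, 1.48% were lower and 2.45% higher. Knl1 had a log2 change of -1.67 in cumulus cells and of 0.41 in MGCs, a difference of -2.08 (SE 0.376, adjusted p = 0.0166), and its change in MGCs was 0.13 without Sphk1/2gc-/- library 3. Cenpe and Cenpf, with differences of -1.81 (SE 0.271, adjusted p = 0.00830) and -1.62 (SE 0.261, adjusted p = 0.0118), passed with any one of the 12 libraries left out. The test depended on single libraries. Without WT cumulus library 1 or 2 the count was 3 or 5, and without WT MGC library 1 or 2 it was 2 or 3. Without cumulus libraries 1, 2 or 3 labelled Sphk1/2gc-/- it was 31, 5 or 5, and without Sphk1/2gc-/- MGC library 1 it was 22. With MGC libraries 1 and 2 of each genotype only it was 27. With a replicate block for the library number, 23 members passed. The shares of all transcripts in these settings were not counted, so the moves cannot be assigned to the members. With size factors in place of FPKM scaling, 26 members were lower, as were 469 of all 15869 transcripts, against 235 in the main fit.

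The WT libraries of the cell types were then compared. The tables of the cell types were scaled separately, each library by its own total, so that these levels rest on FPKM being comparable between them. Compared with WT MGCs, 28 members were called higher in WT cumulus cells and 3 lower by limma. Among all 15339 transcripts tested, 15.9% were called higher and 34.5% lower. The median log2 difference was 1.67 for the members and -0.58 for all transcripts. With size factors in place of FPKM scaling the all-transcript median was -0.17, 3518 transcripts were called lower and 3709 higher, and 35 members were called higher and 1 lower. Markers of other cells were higher in WT MGCs. Oocyte genes summed to 50.1 to 134 FPKM there and to 7.33 to 11.9 in WT cumulus cells. Leukocyte markers summed to 161 to 307 against 4.88 to 54.9, and hemoglobin transcripts to 255 to 391 against 0.346 to 22.4. The part of these cells in the levels of the members was not tested.

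The highest members were unlike in the 2 cell types. Mean WT levels in cumulus cells were 140.4 FPKM ± 16.9 (SD, n = 3) for Birc5, 133 ± 10.9 for Cenpm, 116 ± 16.9 for Mis18a, 82.7 ± 8.79 for Cenpq and 69.4 ± 10.2 for Cenph. Birc5, Cenpm and Mis18a lay within each other's spread, as did Cenpq and Cenph. In WT MGCs they were 53.8 ± 4.27 for Hjurp, 47.4 ± 3.46 for Zwint, 17.7 ± 1.91 for Incenp, 17.6 ± 2.23 for Mis18a and 12.9 ± 2.15 for Bub1b, and neither Hjurp and Zwint nor Incenp and Mis18a differed beyond their spread. Bub3 (11.9 ± 0.841) lay within the spread of Bub1b. Birc5 was at 6.68 ± 1.25 in WT MGCs, a log2 difference of 4.21 (SE 0.276, adjusted p = 5.73e-08), and Cenpm was at 5.06 ± 1.57, a difference of 4.50 (SE 0.340, adjusted p = 1.81e-07).

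In 3 of the 9 roles, some genes were called higher and others lower in WT cumulus cells. In the passenger complex, Birc5, Cdca8 and Aurkb were higher in WT cumulus cells, whereas Incenp was lower (2.98 ± 0.141 against 17.7 ± 1.91 FPKM, log2 difference -2.23, SE 0.222, adjusted p = 1.99e-06). In CENP-A loading, Mis18a and Cenpa were higher (log2 differences 2.66 and 1.98), whereas Hjurp was lower (-1.54, SE 0.158, adjusted p = 2.51e-06). In the checkpoint, Bub1 and Mad2l1 were higher (2.19 and 1.09) and Mad1l1 was lower (-1.25, SE 0.261, adjusted p = 0.000899). With size factors Hjurp and Mad1l1 no longer reached the fold limit (-0.82 and -0.79), and Incenp was the 1 member still called lower. Bub1b and Ttk were near the line of equal level (log2 differences 0.14 and -0.10, adjusted p = 0.645 and 0.660), and Ttk turned positive with size factors (0.50).

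**Figure D4:**
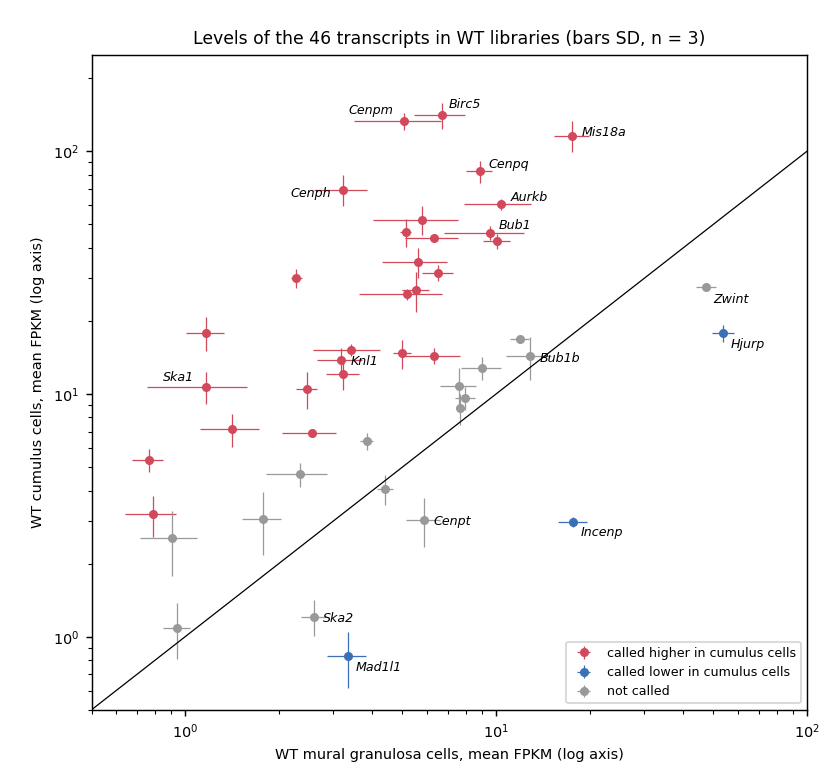
Mean FPKM of each transcript in WT MGCs (x, log axis) and WT cumulus cells (y, log axis), with SD as bars (n = 3) and the line of equal level. The 28 transcripts called higher in cumulus cells lie above the line, and Incenp, Hjurp and Mad1l1 lie below it.

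Gene length moved with this difference. Across the 46 members the log2 difference had a Spearman correlation of -0.355 with exon length, and across 15321 genes it was -0.216, so shorter genes tended to be higher in cumulus cells. These points share the same libraries and are not independent, and the part of length in the result was not tested. In 14 members an exon overlaps one of another gene on the opposite strand (Mad1l1, Zwilch, Oip5, Cenpk, Cenpo, Cenpp, Cenpq, Cenpt, Cenpu, Mis12, Ska2, Ska3, Cdca8 and Sgo2a). The use of strand in counting is not given in the sources used here, so reads in the shared stretches cannot be told apart from those of the partner. How much of each level came from these stretches was not tested. The rebuilt reads of a member ranged from 28 (Ska2) to 12032 (Mis18a) in a cumulus library and from 37 (Ska1) to 11352 (Hjurp) in an MGC library, and no member was at or under 3 reads.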

How the data were processed

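RNA of 12 libraries (MGCs and cumulus cells, WT and Sphk1/2gc-/-, n = 3 each, 2 h post-hCG) was analysed from the deposited tables, 1 per cell type. The submitters' processing notes name HISAT2 and GRCm38, and the counting tool and annotation are not given in the sources used here. The file headers give no unit. The values the authors deposited were read as FPKM, because their product with exon length in GENCODE M21 (GRCm38) fell on whole multiples of a step in 90.6% to 92.1% of values per library (tolerance 0.02 reads). The steps gave the depth, 16100364 to 19761604 reads per library.

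The filter kept genes averaging 0.5 FPKM or more in a group, and these were tested with limma 3.58.1 (R 4.3.3, trend) on log2(FPKM + 1), a scale that understates the change of low transcripts. P-values are two-sided and adjusted by Benjamini-Hochberg over all genes tested. Calls were made at an adjusted p up to 0.05 with a log2 change of at least 1 in size (interaction, the adjusted p alone). Members and lists were chosen with earlier results of these data known. All 46 members could be named, and within each role values in all libraries are given for those with the largest and smallest change, the highest level or another direction. Deviations from group means of same-numbered libraries correlated at 0.220, 0.158 and 0.224 in MGCs and at -0.148, -0.0511 and 0.115 in cumulus cells. They were all positive in MGCs alone. The main fits did not take library numbers as pairs in either cell type, and a replicate block was an alternative in both. The fitting code was run on simulated data with a capped spread and no library that stood apart, which does not check its fit to these libraries. The alternatives were another pseudocount (0.1) or filter, size factors, voom on rebuilt reads, a replicate block and each library left out. Promoter windows are from RefSeq (GRCm38.p6). A gene of a comparison list and a promoter site are not reported here.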

Additional observations from a re-analysis of the deposited data

Results flagged for a closer look

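For 14 members the log2 change with genotype differed between cumulus cells and MGCs by the interaction test (limma, adjusted p of 0.05 or less). The difference, cumulus cells minus MGCs, was -2.08 for Knl1, -1.96 for Ska1 and for Bub1, -1.93 for Cenpm, -1.88 for Birc5, -1.81 for Cenpe and -1.62 for Cenpf. It was -1.49 for Cenpl, -1.43 for Cenpi, -1.26 for Sgo2a and for Cenpq, -1.25 for Mad2l1, -1.23 for Dsn1 and -1.13 for Cenpa. All 14 are lower in cumulus cells labelled Sphk1/2gc-/- relative to the difference in MGCs, and Cenpe and Cenpf passed with each of the 12 libraries left out in turn.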

How the results depend on the processing

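In cumulus cells the count called lower was 15 to 31 with a library left out, 20 with size factors, 26 of the 43 members tested with voom, 29 with a pseudocount of 0.1, 17 with no filter and 23 with a replicate block. With size factors 376 of 12205 transcripts were called lower in cumulus cells, against 470 in the main fit. Such counts over all transcripts were not made with a library left out, voom, another pseudocount, no filter or a replicate block. With no threshold on fold, 1 member was higher. In MGCs no member was called under these settings, the replicate block included, and voom tested 43 of the 46 there too. The interaction count was 2 to 31 with a library left out, 8 with no filter, 26 with size factors, 23 with a replicate block and 27 with MGC libraries 1 and 2 only. Between WT cell types, 1 member was lower with size factors, and a replicate block gave 28 higher and 3 lower. Small uncalled changes turned sign. In cumulus cells with a library left out, these were Mad1l1 (-0.14 to 0.02), Cenpt (-0.13 to 0.18, and -0.0021 with voom) and Mis12 (-0.41 to 0.07). In MGCs 17 members turned from positive to negative without Sphk1/2gc-/- library 3, among them Aurkb (-0.05 to 0.58 with a library left out) and Incenp (-0.09 to 0.40, and -0.01 with libraries 1 and 2 only), and Cenpq (-0.11 to 0.02) turned positive without WT library 3. Between cell types they were Bub1b (-0.01 to 0.25) and Cenpo (-0.01 to 0.19) with a library left out, and Ttk (0.50 with size factors). The cause of these shifts was not tested, beside the smaller number of libraries. No member was at or under 3 reads in a library, and the fewest were 28 (Ska2) in cumulus cells and 37 (Ska1) in MGCs.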
